A study of Macaca mulatta with 6 samples.

Results

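The genes described here supply peptides to MHC class I molecules: TAP1, TAP2, TAPBP, ERAP1 and ERAP2 of peptide loading, and PSMB8, PSMB9, PSMB10, PSME1 and PSME2 of the immunoproteasome. These 10 genes were chosen by name, and every probe set that the platform annotation gave to one of them alone was used. A further 1 probe set, annotated to PSMB10 and another gene together, was left out. That found 16 of the 52024 probe sets of the array, for 8 of the 10 genes: 11 probe sets for all 5 loading genes and 5 for the proteasome genes PSMB8, PSMB10 and PSME2. PSMB9 and PSME1 were not analysed here.

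The samples were both retinas of 3 male rhesus macaques, aged 8 to 10 years, taken 24 h after the intraorbital optic nerve of 1 side had been irradiated by gamma knife surgery. The 3 treated retinas lay on the side of the nerve that was prescribed 15 Gy, and the 3 control retinas on the untreated side of the same animals. No retina came from an unirradiated animal, since the eyeballs themselves received 3 Gy (treated retinas) and 1 Gy (control retinas). RNA of the temporal retina, dissected without the retinal pigment epithelium, was hybridized to 1 Affymetrix Rhesus Macaque Genome Array per retina, and the values are log2 signals of the MAS 5.0 algorithm. The median log2 signal per array lay between 6.44 and 7.03. Retinal identity was checked on 9 marker genes, none of which had a mean log2 signal below 5, and the photoreceptor genes SAG and RCVRN had mean log2 signals of 15.4 and 15.1. The tissue is a mixture of cells, so more cells of a type and more RNA per cell cannot be told apart in any value given here.

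Proteasomes cut cytosolic proteins into peptides. In the immunoproteasome the catalytic subunits encoded by PSMB8, PSMB9 and PSMB10 replace those encoded by PSMB5, PSMB6 and PSMB7, and the activator made of the PSME1 and PSME2 proteins opens its gate. TAP1 and TAP2 form the transporter that carries the peptides into the endoplasmic reticulum. There ERAP1 and ERAP2 trim their ends, and tapasin, the product of TAPBP, holds the class I molecule at the transporter while a peptide is bound. Most of these genes are known to be induced by interferons, and neurons at rest hold little of the class I pathway. In the gene order of the reference assembly T2T-MMU8v2.0, PSMB9, TAP1, PSMB8 and TAP2 are consecutive coding genes, and ERAP1 and ERAP2 are neighbours.

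By the brightest probe set of each gene, all 8 measured genes had a higher mean signal in treated than in control retinas, as had 55.5% of all 14132 named genes. The largest differences were those of PSMB8, at 3.66-fold, and TAP1, at 2.23-fold, and the others lay between 1.17-fold and 1.59-fold. No member passed limma (paired by replicate number) at an adjusted p under 0.05, where 0.205% of all named genes were called higher. Without adjustment, at p under 0.05, 6 of the 8 genes were higher and 0 lower, where 5.02% of all named genes were higher and 3.01% lower. Those 6 were TAP1, TAPBP, ERAP1, PSMB8, PSMB10 and PSME2, and the same 6 were higher in 3 of 3 pairs, as were 19.3% of all named genes. The median log2 difference of the 8 genes was 0.52, beside 0.03 over all named genes, and it was 0.22 when all probe sets of a gene were averaged. By the methods' t-test, which was paired, TAP1 and TAPBP were higher at p under 0.05, where 4.21% of all named genes were, and 0 members passed it after Benjamini-Hochberg adjustment.

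**Figure D1:**
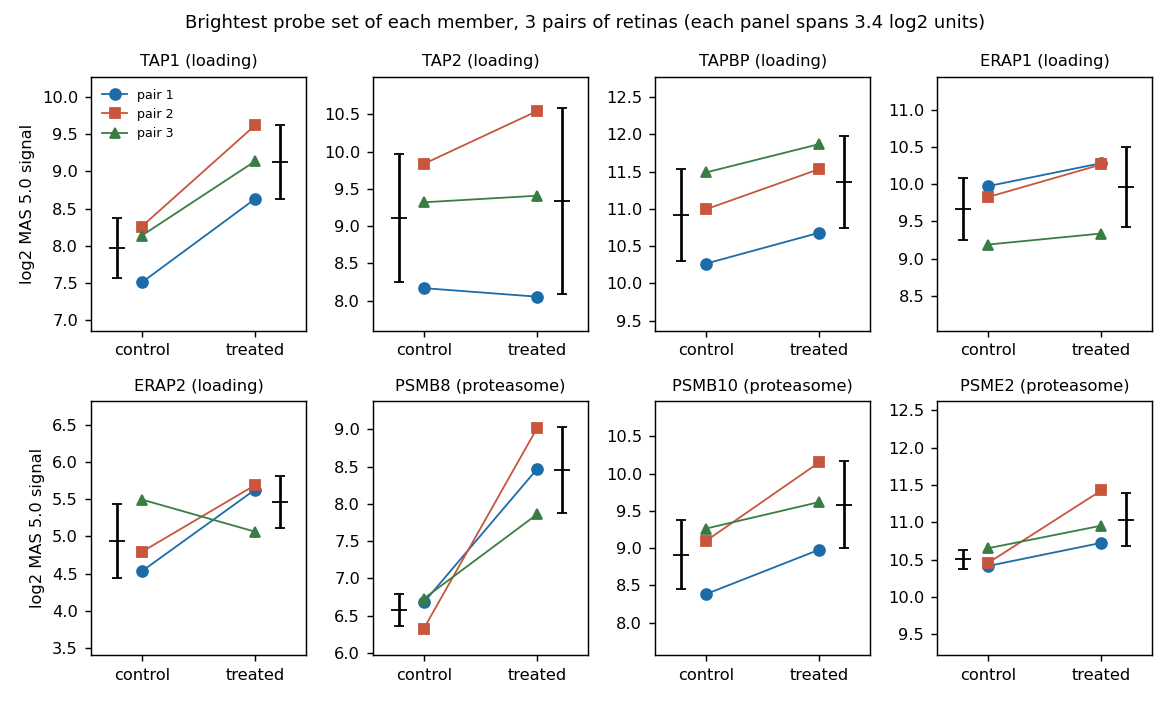
Log2 MAS 5.0 signal (vertical axis) of the brightest probe set of each of the 8 measured genes in control and treated retinas, with a line for each of the 3 pairs and the mean ± SD of each group beside the points; every panel spans the same range of log2 units. The lines of TAP1, TAPBP, ERAP1, PSMB8, PSMB10 and PSME2 go up in 3 of 3 pairs, and PSMB8 has the steepest.

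TAP1, one chain of the peptide transporter, had 1 probe set. Its log2 signal was 7.51, 8.26 and 8.14 in the control retinas of pairs 1 to 3, and 8.63, 9.62 and 9.14 in the treated retinas. Every treated retina lay above every control retina, as in 4.3% of all named genes. The log2 difference was 1.16 (SE 0.16, 95% confidence interval 0.80 to 1.52, adjusted p = 0.0654 from limma), with 1.12, 1.36 and 1.00 in the 3 pairs. Of all 52024 probe sets it ranked 78 by its p. The call depended on the pairs used. Adjusted p was 0.443 when replicate 1 was left out, 0.0216 without replicate 2 and 0.0525 without replicate 3. It was 1.00 in the fit without the replicate block, 0.854 with a variance prior without trend and 0.306 with signals under 5 set to 5. The log2 difference was 1.17 after quantile normalization, 1.26 with each array centred on its median, and between 1.06 and 1.24 when a replicate was left out.

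TAP2, the partner chain of the transporter, had a smaller difference and 3 probe sets of unlike sign. Its brightest probe set read 8.17, 9.83 and 9.32 in control retinas and 8.05, 10.54 and 9.41 in treated retinas. The groups overlapped, and the differences were −0.11, 0.71 and 0.09 in pairs 1 to 3. Their mean of 0.23 (95% confidence interval −0.18 to 0.64, adjusted p = 0.798 from limma) became −0.013 without replicate 2. The dimmer TAP2 probe sets gave −0.36 and −1.61, the latter with 5 of 6 arrays under 5 in log2 signal, a range of high scatter on these arrays. In each of the 3 pairs the difference of TAP1 exceeded that of TAP2, by 1.24, 0.65 and 0.91 (exact sign-flip test, two-sided p = 0.25, the smallest that 3 pairs allow).

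Tapasin, TAPBP, had small and even differences in its brightest probe set. It read 10.27, 10.99 and 11.49 in control retinas and 10.68, 11.53 and 11.87 in treated retinas. The animals differed more from each other than the retinas of an animal did, and the groups overlapped. The differences within pairs were 0.42, 0.54 and 0.38, with a mean of 0.45 (SE 0.09, adjusted p = 0.350 from limma). The other TAPBP probe sets stood at 0.08 and 0.05, with confidence intervals from −0.49 to 0.66 and from −0.67 to 0.77. Both intervals contain the 0.45 of the brightest probe set. With all 3 probe sets averaged the difference was 0.19.

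The aminopeptidase ERAP1 read 9.97, 9.83 and 9.19 in control retinas and 10.28, 10.26 and 9.34 in treated retinas. Its log2 difference was 0.30 (SE 0.11, adjusted p = 0.730 from limma), higher in 3 of 3 pairs, and the second probe set gave 0.20, again higher in 3 of 3 pairs. Pair 3 was the lowest on both sides, and the groups overlapped. ERAP2, the second aminopeptidase, had dim probe sets. Its brighter probe set read 4.53, 4.79 and 5.50 in control retinas and 5.63, 5.69 and 5.06 in treated retinas, a log2 difference of 0.52 with a confidence interval from −0.88 to 1.92 (adjusted p = 0.869), and its other probe set was below 5 on all 6 arrays. The size of the ERAP2 difference could not be resolved at this spread.

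PSMB8, whose product replaces the PSMB5 subunit in the immunoproteasome, showed the largest difference of all members and was measured by 1 probe set. Its log2 signal was 6.68, 6.33 and 6.73 in control retinas, a spread of 0.22 (SD, n = 3), and 8.47, 9.02 and 7.86 in treated retinas, a spread of 0.58. All treated retinas were above all control retinas. The log2 difference was 1.87 (SE 0.32, 95% confidence interval 1.13 to 2.61, adjusted p = 0.167 from limma), and it varied among the pairs, at 1.79, 2.69 and 1.13. It was called without replicate 3 (2.24, adjusted p = 0.0177), whose pair had the smallest difference, and not without replicate 1 or replicate 2 (adjusted p = 0.805 and 0.0576). Adjusted p from limma was 0.733 without the replicate block, 0.854 with a variance prior without trend and 0.574 with signals under 5 set to 5. The methods' t-test gave PSMB8 an unadjusted p of 0.0537.

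PSMB10, whose product replaces the PSMB7 subunit, had a pair of probe sets that both stood higher in 3 of 3 pairs. The brighter read 8.38, 9.10 and 9.26 in control retinas and 8.98, 10.15 and 9.62 in treated retinas, a log2 difference of 0.67 (SE 0.16, adjusted p = 0.489 from limma). The dimmer read 6.55, 7.92 and 8.44, then 8.38, 9.22 and 9.07, a difference of 1.26 (SE 0.24, adjusted p = 0.273). In both, the control and treated retinas overlapped across animals but not within an animal. The probe sets placed the largest difference in different pairs, pair 2 for the brighter and pair 1 for the dimmer. The dimmer was called without replicate 3 (adjusted p = 0.0440), and the brighter under none of the settings tried.

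PSME2, a chain of the proteasome activator, read 10.41, 10.45 and 10.65 in control retinas and 10.72, 11.43 and 10.95 in treated retinas by its brightest probe set. The groups did not overlap, although the lowest treated retina lay just above the highest control retina. The log2 difference was 0.53 (SE 0.15, adjusted p = 0.605 from limma), with 0.97 in pair 2 and 0.31 and 0.30 in pairs 1 and 3. Its second probe set, at a mean log2 signal of 3.27, stood at −1.24 with a confidence interval from −3.71 to 1.23, and was below 5 on 5 of 6 arrays.

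**Figure D2:**
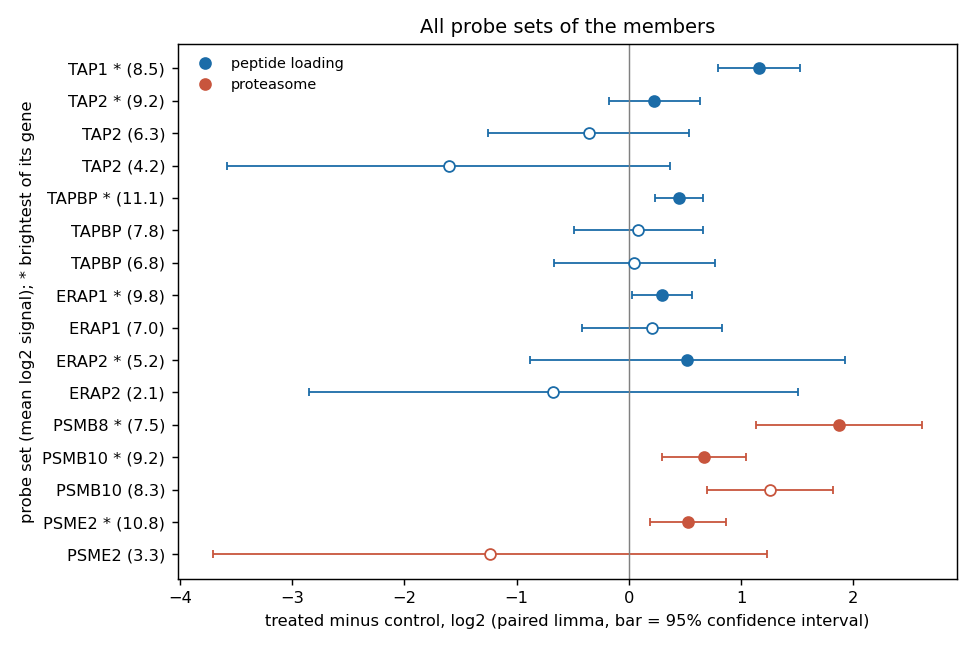
Treated minus control difference (log2, horizontal axis) of all 16 probe sets with 95% confidence intervals from the paired limma fit; filled points are the brightest probe set of a gene, and the mean log2 signal of each probe set is given in brackets. The intervals of TAP1, PSMB8, both PSMB10 probe sets and the brightest probe sets of TAPBP, ERAP1 and PSME2 lie above 0, and the widest intervals belong to the dimmest probe sets.

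Over all 16 probe sets, 12 stood above 0, as did 45.4% of all probe sets on the array. None was called after adjustment, where 0.11% of all probe sets were called higher. Without adjustment, at p under 0.05, 7 were higher and 0 lower, where 2.97% of all probe sets were higher and 3.77% lower. The 4 below 0 belonged to TAP2, ERAP2 and PSME2, and 3 of these 4 had a mean log2 signal below 5.

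Loading and proteasome genes were then set side by side. The median log2 difference of the 5 loading genes was 0.42, 0.71 and 0.15 in pairs 1 to 3, and that of the 3 proteasome genes was 0.60, 1.06 and 0.36. The proteasome median was thus above the loading median by 0.18, 0.35 and 0.21, a mean of 0.25 ± 0.09 (SD, n = 3 pairs). In each pair the proteasome median was the value of PSMB10. The loading median was that of TAPBP, TAP2 and ERAP1 in pairs 1 to 3. The SD is thus that of PSMB10 against a changing gene, and does not describe the spread among the genes. With the mean over genes in place of the median this was 0.49, and with all probe sets of a gene averaged it was 0.90. The genes were chosen by name from a pathway with earlier results known, so no p is given for this contrast. Both groups held members with large and small differences: TAP1 exceeded TAPBP in each pair, by 0.71 on average (SD 0.10), and PSMB8 exceeded PSMB10 by 1.20 (SD 0.43). In both groups pair 2 had the largest median and pair 3 the smallest.

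The constitutive subunits that the immunoproteasome replaces showed smaller differences. PSMB5 stood at 0.20, PSMB6 at 0.21 and PSMB7 at 0.12 by their brightest probe sets, with adjusted p between 0.751 and 0.815 from limma. The second PSMB5 probe set stood at 0.03, with −0.15 in pair 2. In pairs 1 to 3, PSMB8 exceeded PSMB5 by 1.60, 2.36 and 1.07, a mean of 1.67 ± 0.65 (SD, n = 3 pairs), and PSMB10 exceeded PSMB7 by 0.42, 0.81 and 0.43. The exact sign-flip test gave p = 0.25 for each, the smallest that 3 pairs allow. PSME3, which makes an activator related to that of PSME2, stood at −0.02 by its brightest probe set. In pairs 1 to 3, PSME2 exceeded that probe set by 0.03, 1.19 and 0.44. The dimmer PSME3 probe sets gave 1.47 and 0.70, with confidence intervals from −0.29 to 3.22 and from −1.77 to 3.16. They were below 5 in log2 signal on 2 and 6 of the 6 arrays. Of 20 constitutive subunits, activators and assembly factors listed, 13 were measured. By their brightest probe sets none was called after adjustment. PSMA1 and PSMA3, subunits of the outer ring, were higher at an unadjusted p under 0.05, at 0.28 and 0.29. The second PSMA1 probe set stood at 0.04. Dimmer probe sets of PSMA2 were lower at an unadjusted p under 0.05, at −0.40 and −0.37. Its brightest probe set stood at 0.11 and the others at −0.12 and 0.14. The median of the 13 was 0.17, and 0.070 without replicate 2 and 0.27 with each array centred on its median. The highest of the 13 stood at 0.29.

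Other genes of peptide loading and trimming had a median closer to 0. Of 10 listed, 7 were measured, none passed at an adjusted or unadjusted p under 0.05, and their median was 0.02. PDIA3, the oxidoreductase of the loading complex, stood at 0.21 (adjusted p = 0.752 from limma), and its dimmer probe sets gave −0.30 and 0.31. The lectin chaperone CANX stood at 0.09, with a confidence interval from −0.12 to 0.29, and the tapasin homologue TAPBPL at 0.01. The aminopeptidase LNPEP was not resolved, at −0.09 with a confidence interval from −1.28 to 1.10, and it stood at −0.66 without replicate 2 and at 0.45 without replicate 3.

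The chains of the class I molecules that receive the peptides had a median log2 difference of 1.35. All 7 listed were above 0 by their brightest probe sets, as were 55.5% of all named genes, from MAMU-F at 0.08 and MAMU-E at 0.29 to MAMU-I. The dimmer MAMU-E probe sets stood at 0.96 and 1.92, both higher in 3 of 3 pairs. Those of MAMU-F stood at 1.11 and 0.11, with 5 and 6 of 6 arrays below 5 in log2 signal. B2M, the light chain, rose by 1.35 (SE 0.13, adjusted p = 0.0238 from limma), and the heavy chain gene MAMU-I rose by 2.11 (SE 0.21, adjusted p = 0.0238), although its other probe sets stood at 0.86 and −0.03. The calls of B2M and MAMU-I ended without the replicate block (adjusted p = 0.204 and 1.00), without trend in the variance prior (0.854 for both), by the methods' t-test (0.879 for both) and with signals under 5 set to 5 (0.206 and 0.231), and that of B2M also without replicate 1 (0.155). MAMU-B and MAMU-A stood at 1.36 and 1.50 (adjusted p = 0.0644 and 0.119), and a second MAMU-B probe set stood at 0.018 (95% confidence interval −0.29 to 0.33). Heavy chain genes are alike in sequence, and their probe sets may read each other's transcripts.

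**Figure D3:**
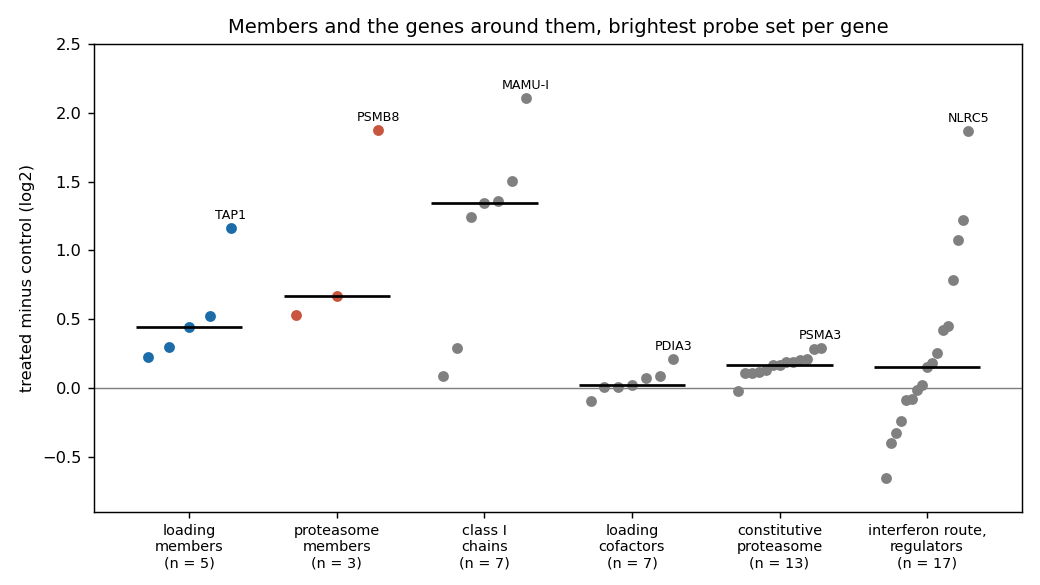
Treated minus control difference (log2, vertical axis) of each gene by its brightest probe set, in the 2 groups of members and 4 lists of genes around them; lines are medians, and the gene with the highest value in each list is named. The class I chains have the highest median, at 1.35, the proteasome and loading members lie at 0.67 and 0.45, and the constitutive proteasome and the loading cofactors lie at 0.17 and 0.02.

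Among 17 measured genes of the interferon route and of class I control, 10 stood above 0 and 7 below, with a median of 0.15. Of all named genes, 55.5% stood above 0. Without adjustment, at p under 0.05, 4 of the 17 were higher and 0 lower, where 5.02% of all named genes were higher and 3.01% lower. None passed after adjustment, where 0.205% of all named genes were called higher. NLRC5, the transactivator of class I genes, read 6.17, 6.69 and 6.44 in control retinas and 8.61, 8.59 and 7.70 in treated retinas. The groups did not overlap, and in 4.3% of all named genes every treated retina lay above every control retina. NLRC5 had a log2 difference of 1.87 (SE 0.29, adjusted p = 0.114 from limma). It was called with each array centred on its median (adjusted p = 0.0456), without replicate 2 (adjusted p = 0.0355) and without replicate 3 (adjusted p = 0.0197). It was not called without replicate 1 (adjusted p = 0.867), without the replicate block (0.733), without trend in the variance prior (0.854), by the methods' t-test (0.879) or with signals under 5 set to 5 (0.450). IRF1, a transcription factor that acts on the promoters of TAP1 and PSMB9, stood at 1.07 (SE 0.23, adjusted p = 0.368), higher in 3 of 3 pairs. The receptor chain IFNAR2 and the kinase JAK2 stood at 0.79 and 0.42 by their brightest probe sets (adjusted p = 0.416 and 0.671 from limma). The dimmer JAK2 probe sets gave 0.22 and −0.03. The second IFNAR2 probe set gave 0.94, with a confidence interval from −0.90 to 2.78. The probe set of interferon gamma itself, IFNG, read 4.32, 4.40 and 5.64 in control retinas and 3.14, 5.10 and 4.93 in treated retinas, and that of IFNB1 lay between 2.57 and 4.99. At such signals a change in these transcripts was not detectable.

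Markers of immune cells were read beside these values, because leukocytes are known to hold immunoproteasomes at rest. Of 11 measured microglia and macrophage markers, 8 stood above 0, with a median of 0.62, and none was called after adjustment. Over all named genes the share above 0 was 55.5%. At an unadjusted p under 0.05, AIF1, C1QA, C1QB, CD14, PTPRC and TYROBP were higher, at 0.61 to 0.97. Of all named genes, 5.02% were higher at that p. P2RY12 and ITGAM were lower in 3 of 3 pairs, at −0.27 and −0.43. These values are those of the brightest probe sets. For CD68 the brightest gave −0.19, whereas the dimmer gave 1.59, higher in 3 of 3 pairs (unadjusted p = 0.0166, adjusted p = 0.685 from limma). The second AIF1 probe set gave 0.45, with −0.28 in pair 2. Dimmer probe sets of C1QA and PTPRC also stood above 0, and that of P2RY12 below. The linear signal summed over the 11 markers was 2562 to 2855 in control retinas and 3203 to 3476 in treated retinas, with no overlap. The part of these markers in the differences of TAP1 and PSMB8 was not tested. Of 13 lymphocyte markers 6 were measured, 3 of them with a mean log2 signal below 5, and their summed signal of 249 to 415 in treated retinas spanned that of 332 to 357 in control retinas. The Müller glia genes RLBP1 and GLUL stood at −0.45 and −0.28, lower in 3 of 3 pairs (adjusted p = 0.270 and 0.716 from limma). Of the 9 measured retina markers, 6 were lower in 3 of 3 pairs, among them SAG, RCVRN, ARR3 and ONECUT1. Of all 14132 named genes, 1917 were. A further 1 of the 9, RBPMS at 0.41, was higher in 3 of 3 pairs.

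Over the 6 arrays, the 5 genes whose signals followed TAP1 most closely were OSBPL5, PHYH, OBI1, GNPAT and SRRD, with Pearson's r of 0.991 to 0.982 among 9679 named genes above the median signal. Of the members, PSMB10 and PSME2 had r of 0.931 and 0.930 with TAP1, PSMB8 0.830, TAPBP 0.717, TAP2 0.636 and ERAP1 0.189. These values describe 6 arrays of 3 animals and carry the differences between animals as well as those between retinas, and none is given a p.

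**Figure D4:**
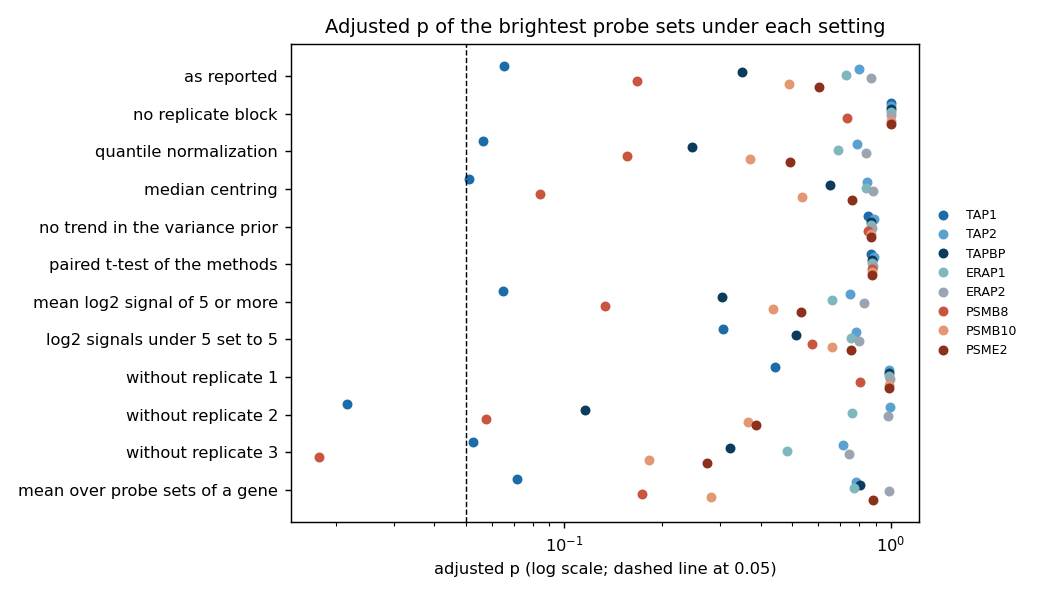
Adjusted p (horizontal axis, log scale) of the brightest probe set of each of the 8 measured genes under the reported fit and 11 other settings; the dashed line marks 0.05. TAP1 without replicate 2 and PSMB8 without replicate 3 are left of the line, at 0.0216 and 0.0177, and no other point is.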

How the data were processed

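The authors deposited log2 values of MAS 5.0 signals, computed in GeneSpring from 1 array per retina. MAS 5.0 scales each array to a common mean. The lowest log2 value, cut to a whole number, was 0. Detection calls were not used here. The number of arrays limits the precision. The treated minus control difference of 52024 probe sets was fitted by limma 3.58.1 (R 4.3.3; eBayes with a variance trend), blocked on the replicate number, without filter or further normalization. P-values received Benjamini-Hochberg adjustment across all probe sets. The methods' t-test, on pairs, used the same log2 values.

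Genes were named by the platform annotation, which named 24956 probe sets with 1 symbol and 361 with several, and left 26707 unnamed. Updating symbols by gene identifier left the 16 probe sets the same. The brightest probe set, the one of highest mean signal over the 6 arrays, stood for a gene. Named beside the members were up to 4 genes per list with the largest moderated statistic, the constitutive counterparts, and the 5 genes closest to TAP1. Other genes and markers given were named after their values were seen. Members and lists were chosen with earlier results of these data known. Scripts were tested on simulated data.

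The study compared both retinas of each monkey. Deviations from the group means of arrays with the same replicate number correlated at 0.357, 0.137 and 0.161. Those of arrays with unlike numbers correlated at −0.243 to 0.104, the highest being treated replicate 2 with control replicate 3. The numbers were taken as pairs, and for replicate 2 these values set them apart only weakly.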

Additional observations from a re-analysis of the deposited data

How the results depend on the processing

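Of the 11 alternative settings, those that change only the test or act on signals under 5 cannot move the differences of TAP1, TAPBP, ERAP1, PSMB8 and PSMB10. Under quantile normalization, median centring and each replicate left out, these 5 genes kept their direction. They also did with all probe sets of a gene averaged, where TAPBP fell from 0.45 to 0.19. TAP2 ran from −0.013 (without replicate 2) to 0.40 (without replicate 1), and with all probe sets of a gene averaged TAP2, PSME2 and ERAP2 became −0.58, −0.35 and −0.076; averaging gives the dim probe sets equal weight. The count of members higher at an unadjusted p under 0.05, which was 6, was 3 with no replicate block, 3 with a variance prior without trend, 2 by the methods' t-test and 3 with probe sets averaged, and 5 to 6 when a replicate was left out. The count called after adjustment, which was 0, ran from 0 to 1 when a replicate was left out, through TAP1 and PSMB8. The median difference of the members, 0.52, was 0.22 with probe sets averaged, and that of the constitutive proteasome genes, 0.17, was 0.070 without replicate 2 and 0.27 with median centring. The excess of the proteasome over the loading median, 0.25, was 0.49 with means and 0.90 with probe sets averaged. Of the class I chains, 2 were called, against 0 with no replicate block, without trend, by the methods' t-test and with signals under 5 set to 5, and 1 to 5 leaving out a replicate. With arrays centred on their medians the loading cofactors had a median of 0.12 and the interferon route and regulators 0.25, with 1 gene called, NLRC5. Leaving out a replicate gave 0.075 to 0.098 for the cofactors and 0 to 1 genes called for the regulators. Causes were not tested. Probe sets under a log2 signal of 5 limit what can be said of ERAP2, IFNG and IFNB1.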
